A study of Mus musculus with 12 samples.

Results

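*Cib3*, *Ly6d*, *Sprr1a* and *Slpi* were low in wild-type mouse liver (0 to 11.7 TPM, a share of the library's transcripts divided by transcript length) and were among the genes with the largest rises in livers that had lost YAP. These 4 genes, out of 41743 listed for every liver, were chosen on that rise and on their low wild-type level. The rise itself is therefore described below and not tested. Whole-liver RNA was sequenced from 12 female mice aged 3 to 4 months, in 4 groups of 3. YAPKO mice, labelled YAP1 KO, carried *Foxa3*-Cre, floxed *Yap1* (*Yap1* fl/fl) and a floxed-stop EYFP reporter at the *ROSA* locus (ROSA-stop fl/fl-EYFP) on the C57BL/6 background, and were compared with their WT littermates. YAPKO TAZHET mice, labelled as YAP1 KO TAZ heterozygotes, came from a separate line on a mixed C57BL/6-FVB background with *Foxa3*-Cre, *Yap1* fl/fl and 1 floxed copy of *Wwtr1*, the gene for TAZ, for which no reporter is named, and were compared with WT littermates of that background. The floxed *Yap1* mice behind these models came from different stocks. The alleles carried by the WT littermates are not given in the sources used here.

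*Foxa3*-Cre acts in the foregut endoderm of the embryo. Hepatocytes and any bile duct cells would thus descend from recombined cells, and blood, endothelial and stellate cells would keep *Yap1*. Recombination by cell type was not measured here. The authors also mention unshown evidence that this Cre may act in the developing kidney, which comes from mesoderm. In whole liver, a change in the number of cells of a type and a change in RNA per cell cannot be told apart. *Yap1* stood at 28.2 to 33.2 TPM in the 6 WT livers, at 1.67 to 3.72 TPM in YAPKO livers and at 8.63 to 11.5 TPM in YAPKO TAZHET livers. *Wwtr1* stood at 6.26 to 8.38 TPM in WT, 13.3 to 16.7 TPM in YAPKO and 11.5 to 14.1 TPM in YAPKO TAZHET livers. Between 14442 and 15047 genes were above 0 in each liver, and the tables keep no record of read depth. For comparisons the TPM values were scaled between libraries, and a gene was called when its limma p-value, adjusted by Benjamini-Hochberg over all tested genes, was under 0.05.

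The 4 genes come from unrelated families. *Cib3* encodes calcium and integrin binding family member 3, an EF-hand protein known as a partner of the TMC mechanotransduction channels of inner ear hair cells. *Ly6d* encodes a small cell surface protein of the Ly6 and uPAR family, held in the membrane by a glycolipid anchor and known from keratinocytes and from lymphoid progenitors committed to the B lineage. *Sprr1a* encodes a small proline-rich protein of the cornified envelope, the layer that transglutaminases cross-link beneath the membrane of squamous epithelial cells, and is also known from regenerating neurons. *Slpi* encodes secretory leukocyte protease inhibitor, a secreted protein of WAP domains that blocks neutrophil elastase and cathepsin G and shields progranulin from cleavage. YAP and TAZ are coactivators that work through TEAD transcription factors.

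In the deposited tables, which use GRCm38, all 4 genes lie on the minus strand. *Cib3* (ENSMUSG00000074240) spans chr8:72204335-72212996, *Ly6d* (ENSMUSG00000034634) chr15:74762056-74763620 and *Sprr1a* (ENSMUSG00000050359) chr3:92483952-92485895. *Slpi* (ENSMUSG00000017002) spans chr2:164354070-164389095. The span is long because 1 of its GENCODE M21 transcripts, *Slpi-203*, starts far upstream of *Slpi-201*, which starts at 164356507. The coding stretches printed next show the composition that marks 3 of the 4 proteins, taken from GENCODE M21 transcripts in frame. In *Sprr1a-201*, 46 of 144 codons encode proline (31.9%), and codons 23 to 82 hold 23 of them, shown in capitals. In *Ly6d-201*, 11 of 127 codons encode cysteine (8.66%), and codons 18 to 92 hold 10, in capitals, the residues whose disulfide bonds hold the Ly6 fold. In *Slpi-201*, 17 of 131 codons encode cysteine (13%), and codons 49 to 123 hold 13, in capitals, the residues that brace its WAP domains.
Sprr1a codons 23 to 82: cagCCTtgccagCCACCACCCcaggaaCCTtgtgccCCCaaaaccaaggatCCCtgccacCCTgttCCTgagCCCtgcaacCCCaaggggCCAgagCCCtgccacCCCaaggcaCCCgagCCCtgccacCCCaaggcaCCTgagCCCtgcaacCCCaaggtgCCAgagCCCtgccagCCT
Ly6d codons 18 to 92: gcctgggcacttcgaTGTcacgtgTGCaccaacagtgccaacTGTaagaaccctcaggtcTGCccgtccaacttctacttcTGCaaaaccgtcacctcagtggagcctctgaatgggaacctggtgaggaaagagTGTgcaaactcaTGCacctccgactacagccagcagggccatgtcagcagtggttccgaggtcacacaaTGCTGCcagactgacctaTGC
Slpi codons 49 to 123: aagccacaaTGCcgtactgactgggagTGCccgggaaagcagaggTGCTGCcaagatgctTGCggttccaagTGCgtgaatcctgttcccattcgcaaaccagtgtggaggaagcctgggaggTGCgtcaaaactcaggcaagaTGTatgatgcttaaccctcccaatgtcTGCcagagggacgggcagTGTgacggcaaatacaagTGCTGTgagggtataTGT
No other gene had a transcript at 90% identity or more over 30% or more of the longest transcript of any of the 4. The nearest relative in sequence was *Sprr1b* for *Sprr1a*, at 76.7% identity over 519 bases.

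*Cib3* stood at 0.867, 1.61 and 0.516 TPM in WT (C57BL/6) mice LM75, LM192 and LM193, and at 342, 332 and 337 TPM in YAPKO mice LM74, LM189 and LM191. On the mixed background its level was 0.18, 0.71 and 0.315 TPM in WT mice LM226, LM227 and LM230, and 264, 373 and 348 TPM in YAPKO TAZHET mice LM225, LM250 and LM251. Every knockout liver was far above every WT liver. The lowest YAPKO value was 206 times the highest WT value of its set, and in the mixed set this ratio was 371. The group means were 0.998 ± 0.559 and 337 ± 5.12 TPM in the C57BL/6 set, and 0.402 ± 0.275 and 328 ± 57.2 TPM in the mixed set (SD, n = 3 each). The coefficient of variation was 1.52% over the 3 YAPKO livers and 17.4% over the YAPKO TAZHET livers, where LM225 was low. By level, *Cib3* ranked between 10375 and 13225 among the genes of the WT livers and between 323 and 476 in the knockout livers.

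*Ly6d* had the highest level of the 4 in each of the 6 knockout livers. It was at 2.3, 3.14 and 6.39 TPM in WT (C57BL/6) mice LM75, LM192 and LM193, and at 732, 862 and 707 TPM in YAPKO mice LM74, LM189 and LM191. On the mixed background its level was 2.06, 2.35 and 11.7 TPM in WT mice LM226, LM227 and LM230, and 887, 777 and 777 TPM in YAPKO TAZHET mice LM225, LM250 and LM251. The groups did not overlap, and the spread lay in the WT livers, where LM230 stood apart. The mean was 3.94 ± 2.16 TPM in WT and 767 ± 83.4 TPM in knockout livers of the C57BL/6 set, a ratio of 195, and 5.38 ± 5.49 and 814 ± 63.5 TPM in the mixed set, a ratio of 151 (SD, n = 3 each). By level, *Ly6d* ranked between 5245 (LM230) and 10104 among the genes of the WT livers and between rank 133 and rank 175 of the genes in the knockout livers.

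*Sprr1a* was listed at 0 in 4 of the 6 WT livers, at 0.141 TPM in LM193 and at 0.515 TPM in LM230. It was at 97.3, 95.4 and 44.8 TPM in YAPKO mice LM74, LM189 and LM191, and at 69.7, 140.4 and 95.6 TPM in YAPKO TAZHET mice LM225, LM250 and LM251. No fold change is given against groups that are mostly at 0, but the lowest knockout liver was 319 times the highest WT liver in the C57BL/6 set and 135 times in the mixed set. Between mice of a knockout group *Sprr1a* was the most variable of the 4, with a coefficient of variation of 37.6% in YAPKO and 35.1% in YAPKO TAZHET livers. LM193 and LM230 were also the WT livers with the highest *Ly6d* of their groups, an observation made after the values were seen and not tested.

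*Slpi* was at 0.87, 3.86 and 1.34 TPM in WT (C57BL/6) mice LM75, LM192 and LM193, and at 104, 135 and 186 TPM in YAPKO mice LM74, LM189 and LM191. On the mixed background its level was 1.7, 2.87 and 1.23 TPM in WT mice LM226, LM227 and LM230, and 336, 409 and 385 TPM in YAPKO TAZHET mice LM225, LM250 and LM251. The 3 YAPKO TAZHET livers were all above the 3 YAPKO livers, while the WT groups overlapped. The mean was 2.03 ± 1.61 TPM in WT and 142 ± 41.1 TPM in knockout livers of the C57BL/6 set, a ratio of 69.9, and 1.93 ± 0.844 and 377 ± 37.0 TPM in the mixed set, a ratio of 195 (SD, n = 3 each).

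**Figure D1:**
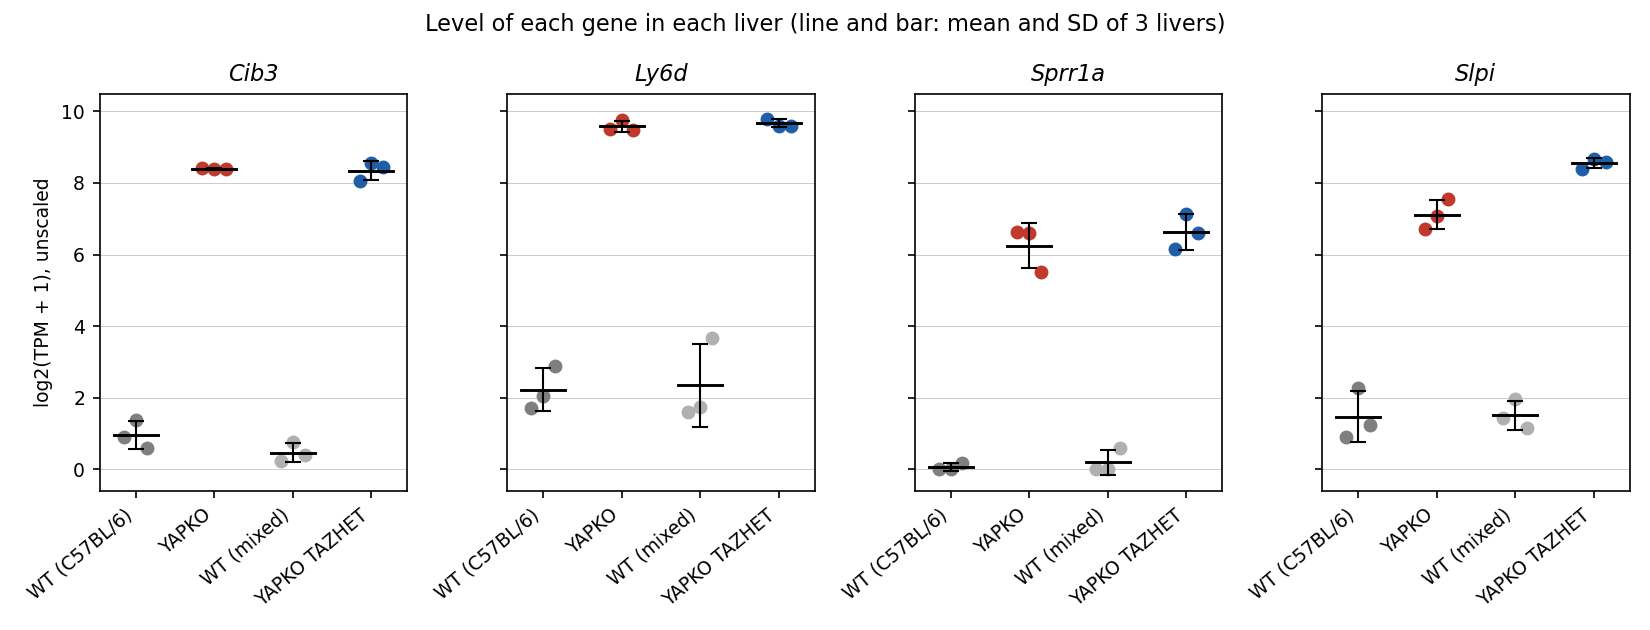
Level of *Cib3*, *Ly6d*, *Sprr1a* and *Slpi* in each of the 12 livers on a log2(TPM + 1) axis, 1 panel a gene and 3 points a group; the line and bar are the mean and SD. All knockout points lie above all WT points in each panel, and *Slpi* is the panel in which the 3 YAPKO TAZHET points (336 to 409 TPM) lie above the 3 YAPKO points (104 to 186 TPM).

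Summed over the 4 genes, the level was 3.95 to 13.8 TPM in the WT livers, 1274 to 1424 TPM in YAPKO livers and 1557 to 1699 TPM in YAPKO TAZHET livers. The order of the levels was *Ly6d*, *Cib3*, *Slpi*, *Sprr1a* in all 3 YAPKO livers, and no neighbours in it overlapped between livers. In all 3 YAPKO TAZHET livers it was *Ly6d*, *Slpi*, *Cib3*, *Sprr1a*. There *Slpi* was above *Cib3* within each liver, but the ranges of the 2 genes overlapped. In WT livers *Ly6d* or *Slpi* was highest, and the levels were too low for an order beyond that.

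On the scale used for the comparison of all genes, log2(scaled TPM + 1), the 4 genes stood at or near the top of each model. In YAPKO livers, where 18.8% of 11704 tested genes were called higher, *Cib3* had the largest rise of all tested genes at 7.17 and *Ly6d* the next at 7.04. *Sprr1a* ranked 4 at 5.99, just below *Gm3776* at 6.88 and above *Gsta1*, a glutathione S-transferase, at 5.89. *Slpi* ranked 8 at 5.36, between *Lcn2*, which encodes the iron-carrier binding protein lipocalin 2, at 5.47 and *Gstm3*, another glutathione S-transferase, at 5.28. In YAPKO TAZHET livers, where 19.2% of 11741 tested genes were called higher, the 4 genes took the first 4 places, with *Cib3* at 7.67, *Ly6d* at 7.03, *Slpi* at 6.78 and *Sprr1a* at 6.24, and *Lcn2* followed at 6.18. The median over all tested genes was -0.04 in both models on this scale. Since the genes were chosen on these rises, the shares are given as background and nothing is read from them.

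Because 1 is added before the log, the scale understates the rise of genes near 0 in WT. With 0.1 added in place of 1, the rise of *Sprr1a* was 8.91 in YAPKO and 8.84 in YAPKO TAZHET livers, and it then ranked first and second.

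**Figure D2:**
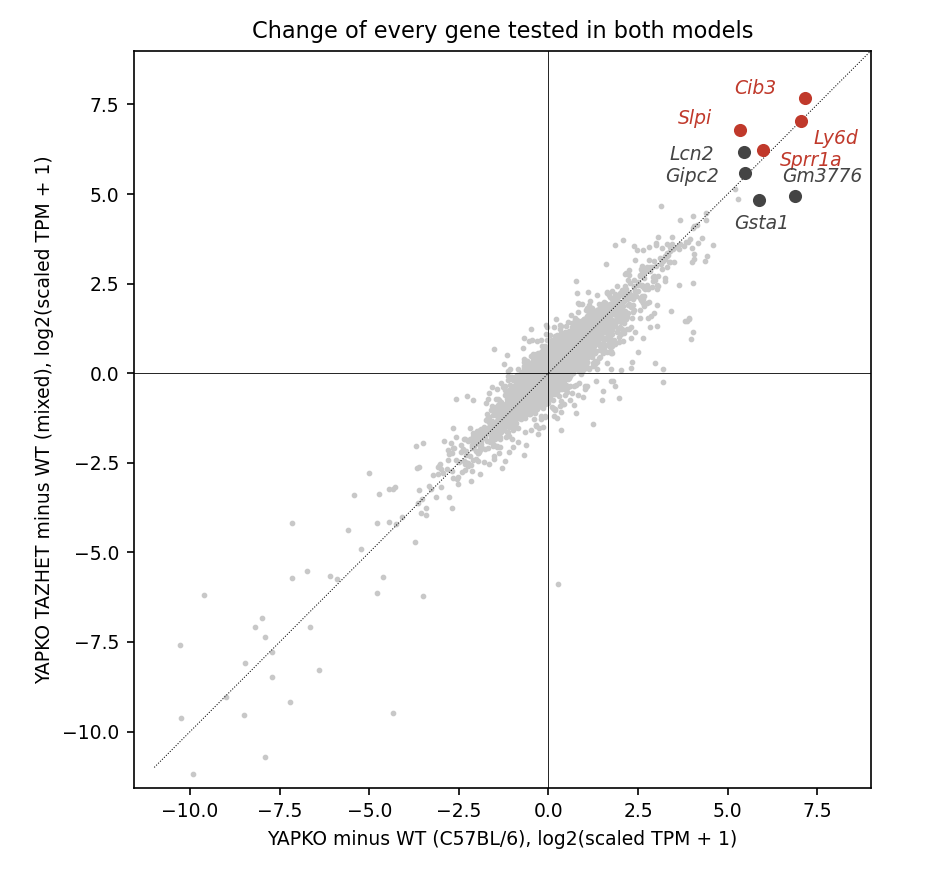
Each point is 1 gene tested in both models: its change in YAPKO livers against WT (C57BL/6) on the x axis and in YAPKO TAZHET livers against WT (mixed) on the y axis, in log2(scaled TPM + 1), with the dotted line marking equal change. The 4 genes, in red, lie at 5.36 or more on both axes, and *Slpi* (5.36 and 6.78) lies farthest of the 4 from the dotted line, on the side of YAPKO TAZHET.

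The rise in one model against the rise in the other was not used to choose the genes and was tested in 1 fit of all 12 livers. The difference is the change in YAPKO minus the change in YAPKO TAZHET livers on the log2 scale. It was called for 0.0576% of 12159 tested genes (7 genes) and for none of the 4. *Slpi* had the largest difference of the 4, at -1.41 (standard error 0.48, 95% interval -2.45 to -0.38, limma adjusted p = 0.908), which ranked 148 among all genes by p. Its mean TPM in YAPKO TAZHET livers was 2.66 times that in YAPKO livers, and an exact two-sided permutation test of the 3 against 3 livers gave p = 0.1, the smallest value this design allows (0.4 adjusted over the 4 genes). The difference was -0.48 for *Cib3* (95% interval -1.14 to 0.18), -0.22 for *Sprr1a* (-1.18 to 0.74) and 0.01 for *Ly6d* (-1.41 to 1.42), and limma gave each an adjusted p of 0.999. These intervals leave room for differences of more than 2-fold in *Cib3*, *Sprr1a* and *Ly6d*, so the rises were not shown to be alike. TAZ heterozygosity, background, the stock of floxed *Yap1* mice and the EYFP reporter cannot be told apart in this comparison. Nor can the level of remaining *Yap1* RNA and the set of animals be told apart from them. Mean *Yap1* was 2.44 TPM in YAPKO and 9.77 TPM in YAPKO TAZHET livers.

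The WT livers of the 2 backgrounds were also compared in that fit, and 0.189% of 12159 genes were called (23 genes), none of them among the 4. *Cib3* was lower in WT (mixed) than in WT (C57BL/6) livers by 0.55 on the log2 scale (95% interval -1.01 to -0.08, limma adjusted p = 0.799) and the groups overlapped in TPM. The differences of *Ly6d*, *Sprr1a* and *Slpi* were 0.08, 0.15 and 0.02 (limma adjusted p of 0.989 or more). Low WT levels were part of the choice of the 4 genes, which holds their values near the floor. These WT differences are therefore a description, and nothing is drawn from them.

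**Figure D3:**
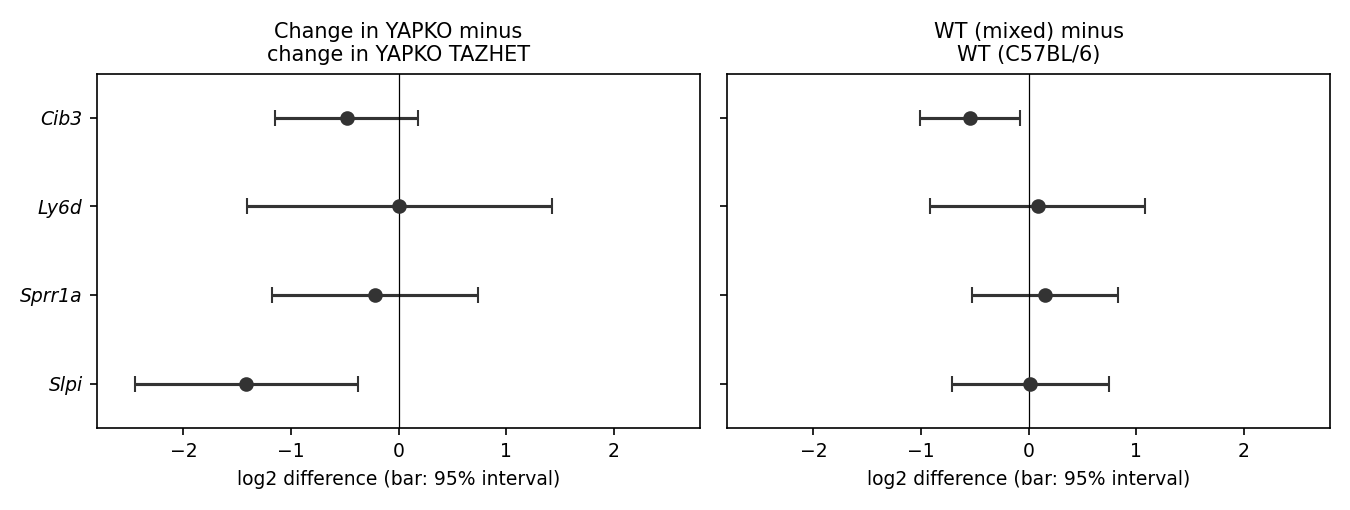
Left, the change in YAPKO minus the change in YAPKO TAZHET livers for each of the 4 genes; right, WT (mixed) minus WT (C57BL/6) livers, both in log2(scaled TPM + 1) with 95% intervals from the limma fit of 12 livers. The interval of *Slpi* on the left (-2.45 to -0.38) and that of *Cib3* on the right (-1.01 to -0.08) do not reach 0, and neither passes after adjustment over all genes.

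Variation between mice of a knockout group was likewise not used in the choice. For each pair of genes, the deviations of log2(scaled TPM + 1) from the group mean were correlated over the 6 knockout livers, with an exact two-sided permutation of mice within groups, for which 0.0278 is the smallest p. Of 6 pairs, *Cib3* and *Slpi* varied together most closely (Pearson r = 0.559, Spearman rho = 0.771, exact permutation p = 0.0278 for both, 0.167 adjusted over the 6 pairs). Without LM225 and LM250, the livers farthest from the median of *Cib3*, r was 0.626. The relation depended on the scaling of the libraries. Without scaling, an alternative chosen after the data were seen, r over the 6 livers was 0.294 (exact permutation p = 0.278, 0.556 adjusted), and within the 3 YAPKO livers it turned from 0.903 to -0.395. The other 5 pairs had r between -0.267 and 0.548 (exact permutation, adjusted p = 0.917). After adjustment no pair was shown to vary together between mice.

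Likeness of pattern over all 12 livers was measured as the root mean square difference of log2(scaled TPM + 1), each gene centred on its own mean, against the other 12158 genes. The values are descriptions, since the genes share the contrast of knockout and WT livers. The gene nearest to *Cib3* was *Ly6d* (0.73), and the gene nearest to *Ly6d* was *Sprr1a* (0.70). The pattern nearest to *Sprr1a* was that of *Gipc2* (0.53), a PDZ-domain protein gene that was at 0 to 0.429 TPM in the 6 WT livers and at 58.2 to 64.2 TPM in the 6 knockout livers. The pattern nearest to *Slpi* was that of *Lcn2* (0.65), at 13.1 to 42.6 TPM in WT and 906 to 2258 TPM in knockout livers. *Lcn2* was among the 3 nearest genes of each of the 4.

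The relatives of each gene were followed in 4 lists that together hold 102 genes beside the 4. Of these, 27 could be tested in YAPKO and 28 in YAPKO TAZHET livers, which needed 1 TPM in at least 3 of the 6 livers, and 15 were called higher in each. Of the tested genes, 7 and 8 reached 1 TPM in knockout livers and in no WT liver of their set. Such genes could enter the test only through their high group, so their adjusted p-values and the counts that follow are a description. The counts are to be read beside the 18.8% and 19.2% of all tested genes called higher and the 17.9% and 19% called lower. Of the genes called higher, 8 and 7 reached 1 TPM in some WT liver.

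Of the CIB family and its partners, *Cib4*, *Tmc1* and *Tmc2* were listed at 0 in all 12 livers; *Tmc1* and *Tmc2* encode the channels that *Cib3* is known with in hair cells. *Cib2* fell by 1.02 in YAPKO livers (mean 7.51 to 4.12 TPM, limma adjusted p = 0.00626) and by 1.03 in YAPKO TAZHET livers (7.87 to 4.21 TPM, adjusted p = 0.00152). *Cib1* rose by 0.49 in YAPKO TAZHET livers (54.1 to 95.2 TPM, limma adjusted p = 0.0206) and had a difference of 0.19 in YAPKO livers (adjusted p = 0.162). *Itga2b*, the integrin chain that CIB1 binds in platelets, fell by 0.59 in YAPKO TAZHET livers (limma adjusted p = 0.0469), a call lost without scaling (adjusted p = 0.141). The median over the 3 tested genes was -0.26 and -0.59.

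Of 38 genes of the Ly6 and uPAR family, 10 were listed at 0 in all livers. Of 10 tested in YAPKO livers 5 were called higher and 4 lower, with a median of 0.50, and of 11 tested in YAPKO TAZHET livers 5 were higher and 3 lower, with a median of 0.63. In each model 3 of those called higher reached 1 TPM in knockout livers alone. They were *Ly6c1*, *Lynx1* and *Plaur* in YAPKO livers and *Ly6c1*, *Ly6k* and *Lynx1* in YAPKO TAZHET livers. *Ly6e*, a widely expressed member known to restrain virus entry, was at 168 to 255 TPM in WT (C57BL/6) and 1179 to 1295 TPM in YAPKO livers, and at 171 to 309 TPM in WT (mixed) and 1186 to 1426 TPM in YAPKO TAZHET livers. Its log2 change was 2.11 and 2.13 (limma adjusted p = 6.50e-05 and 1.55e-04), and it exceeded *Ly6d* in level in every liver. *Plaur*, the urokinase receptor gene, rose by 1.46 and 1.17 to means of 4.51 and 3.61 TPM. *Lynx1*, a modulator of nicotinic receptors, rose by 0.89 and 1.01, and *Ly6k* by 1.16 in YAPKO TAZHET livers. *Ly6c1* rose by 0.89 and 0.75, but its transcript is 98.3% identical to that of *Ly6c2*, so reads could have moved between them, and the YAPKO call was lost under quantile normalization (limma adjusted p = 0.0678). Downward, *Ly6g2* changed by -1.34 and -0.92, and *Cd59b* and *Cd59a*, which protect cells from the complement attack complex, by -1.13 and -1.28 and by -0.62 and -1.07. The *Cd59a* call in YAPKO livers was lost without scaling (adjusted p = 0.0568). *Gml* and *Gml2*, named after their values were seen, were at 0 in all WT livers and at means of 0.759 to 1.001 TPM in the knockout groups, too low to be tested.

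Of 31 genes of the small proline-rich family, the cornified envelope and its transglutaminases, 17 were listed at 0 in all livers, and 4 of 5 tested genes were called higher in each model (medians 1.49 and 1.23), beside 18.8% and 19.2% of all tested genes. In each model 2 of the 5 reached 1 TPM in knockout livers alone. They were *Sprr2b* and *Evpl* in YAPKO livers and *Sprr2a2* and *Sprr2b* in YAPKO TAZHET livers. *Tgm2*, the tissue transglutaminase, was at 57.02 to 80.2 TPM in WT (C57BL/6) and 334 to 419 TPM in YAPKO livers, and at 51.6 to 74.4 and 346 to 380 TPM in the mixed set, a log2 change of 2.09 and 2.20 (limma adjusted p = 1.64e-05 and 2.04e-05). The groups did not overlap. *Tgm1*, the transglutaminase of keratinocytes, was not called, at means of 24.7 and 19.0 TPM and of 20.2 and 22.1 TPM. *Ppl*, the gene of the envelope linker periplakin, rose by 2.05 and 1.23, and *Evpl*, the gene of its partner envoplakin, by 0.87 in YAPKO livers to a mean of 1.42 TPM. *Sprr2b*, in the gene cluster of *Sprr1a*, was at 0 to 0.146 TPM in WT and 2.13 to 3.87 TPM in knockout livers (log2 change 1.49 and 1.94). *Sprr2a2* rose by 1.14 in YAPKO TAZHET livers, but its transcript is 99.9% identical to that of *Sprr2a1* and the share of reads between them is uncertain. The rest of the envelope stayed low. *Ivl* (involucrin) reached at most 0.621 TPM, *Lor* (loricrin) 1.34 TPM and *Sprr1b* 0.385 TPM, and *Flg* and *Sprr3* were listed at 0.

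Of 27 genes of the WAP family, of the proteins that SLPI acts on and of a related protease, 12 were listed at 0 in all livers. In YAPKO livers 6 of 9 tested genes were called higher and 1 lower (median 1.06), and in YAPKO TAZHET livers 5 were higher and 1 lower (median 0.66), beside 18.8% and 19.2% of all tested genes called higher and 17.9% and 19% lower. Of the 9, 2 in YAPKO and 3 in YAPKO TAZHET livers reached 1 TPM in knockout livers alone. They were *Wfdc3* and *Wfdc16* in both models and *Prtn3* in YAPKO TAZHET livers. *Wfdc3* was at 0 to 0.113 TPM in WT, 6.74 to 11.8 TPM in YAPKO and 6.53 to 12.9 TPM in YAPKO TAZHET livers (log2 change 3.12 and 3.20, limma adjusted p = 1.50e-05 and 3.87e-05). Every knockout liver was above every WT liver. *Wfdc2*, an epithelial member of the family, rose by 1.54 in YAPKO livers (mean 5.79 to 23.2 TPM, limma adjusted p = 0.00192) and had a change of 0.66 in YAPKO TAZHET livers (adjusted p = 0.1); the difference between the models was 0.88 (adjusted p = 0.999). *Wfdc16* rose by 1.27 and 1.30 and *Wfdc17*, known from activated macrophages, by 1.06 and 1.21. *Wfdc21* was lower by -0.79 and -1.24, a call lost without scaling in YAPKO livers (limma adjusted p = 0.0551) and under quantile normalization in both models (0.13 and 0.0719).

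Among the proteins that SLPI acts on, *Elane* (neutrophil elastase) reached at most 0.938 TPM in any liver and *Ctsg* (cathepsin G) at most 0.531 TPM, so neither could be tested. The list also holds *Prtn3*, the gene of the related protease proteinase 3, which is not taken here as a protein that SLPI acts on. *Prtn3* was at 0.43 to 1.31 TPM in WT and 4.42 to 25.9 TPM in knockout livers, with LM74 and LM225 the highest of their groups (log2 change 2.45 and 2.14, limma adjusted p = 0.00343 and 0.00286). The same mice had the lowest *Slpi* of their groups, which was noticed after the values were seen and not tested. *Grn*, the gene of progranulin, rose by 0.44 and 0.49 (mean 159 to 278 TPM and 159 to 281 TPM).

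**Figure D4:**
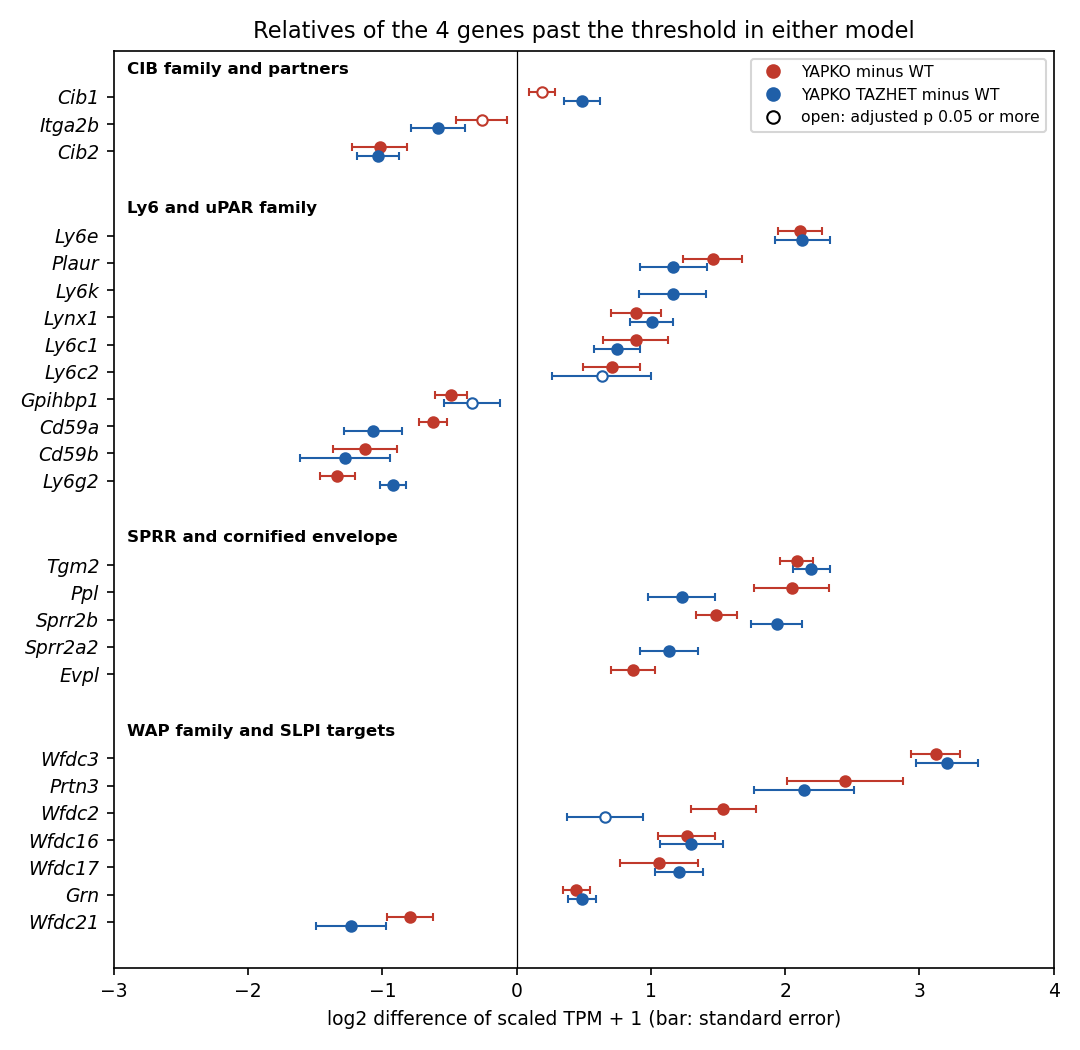
Log2 difference of scaled TPM + 1 between knockout and WT livers, with standard errors, for the relatives of the 4 genes called in at least 1 model; red is YAPKO, blue is YAPKO TAZHET, and open circles have an adjusted p of 0.05 or more. Rises of *Wfdc3* (3.12 and 3.20) are the largest shown, against 5.36 or more for the 4 genes themselves.

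Genes starting within 250 kb of each of the 4 were mostly silent or weakly expressed. The counts are a description beside the 18.8% and 19.2% of all tested genes called higher and the 17.9% and 19% called lower. Among the called neighbours, *Cyp4f18*, *Lynx1* and *Sprr2b* in both models and *Ly6k* in YAPKO TAZHET livers reached 1 TPM in knockout livers alone. Such genes could enter the test only through their high group. Around *Ly6d*, 4 and 5 of 26 neighbours could be tested, and 3 and 4 were called higher in YAPKO and YAPKO TAZHET livers, namely *Ly6e*, *Lynx1*, *Them6* (log2 change 0.82 and 0.96) and, in YAPKO TAZHET livers, *Ly6k*. Around *Sprr1a*, 22 of 28 neighbours were listed at 0 in all livers and *Sprr2b* was the only one tested. Around *Cib3*, 3 of 9 tested neighbours were called higher in YAPKO livers, *Cyp4f18*, a cytochrome P450 of leukotriene breakdown (1.57), *Tpm4*, a tropomyosin (1.29), and *Eps15l1* (0.54, lost under quantile normalization with a limma adjusted p of 0.0509). In YAPKO TAZHET livers *Cyp4f18* (1.61) and *Tpm4* (1.05) were called higher of 10 tested, and *Gm10282* was lower (-0.55, lost without scaling, limma adjusted p = 0.137). Around *Slpi*, 7 of 31 neighbours were tested, and 2 were called higher and 1 lower in each model: *Wfdc2* and *Dbndd2* (1.35) rose in YAPKO livers, and *Dbndd2* (1.05) and *Gm20458* (1.02) in YAPKO TAZHET livers. The lower ones were *Sys1* in YAPKO livers (-0.38, adjusted p = 0.764 without scaling) and the syndecan gene *Sdc4* in YAPKO TAZHET livers (-0.66, limma adjusted p = 0.0538 without scaling).

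The stretches of DNA before the starts of *Sprr1a* and *Slpi* are shown. That of *Slpi* lies within the span of its long transcript *Slpi-203*, whose exons were not compared with it. A window was found in the RefSeq table for 3 of the 4 genes, not for *Ly6d*, and that of *Cib3* is not printed because it overlaps an annotated first exon. Motifs for AP-1 (TGANTCA), TEAD (GGAATG), STAT (TTCNNNGAA), C/EBP (TTGCNNAA), NF-kB and the TATA box (TATAAA) were searched on both strands, and matches are in capitals. The search covered the 250 bases before the RefSeq start of *Slpi* and only the 236 printed bases of *Sprr1a*. The sequences are from GRCm38.p6, minus strand, 5′ to 3′. The 236 bases of *Sprr1a* stop at its GENCODE start, 14 bases short of the RefSeq start at 92485881 from which positions are counted.
Sprr1a, chr3:92485896-92486131: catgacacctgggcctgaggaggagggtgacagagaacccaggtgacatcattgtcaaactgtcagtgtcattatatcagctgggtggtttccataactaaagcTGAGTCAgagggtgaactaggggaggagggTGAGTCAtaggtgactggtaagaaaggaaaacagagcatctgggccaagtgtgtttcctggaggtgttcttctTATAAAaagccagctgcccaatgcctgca
Slpi, chr2:164356508-164356757: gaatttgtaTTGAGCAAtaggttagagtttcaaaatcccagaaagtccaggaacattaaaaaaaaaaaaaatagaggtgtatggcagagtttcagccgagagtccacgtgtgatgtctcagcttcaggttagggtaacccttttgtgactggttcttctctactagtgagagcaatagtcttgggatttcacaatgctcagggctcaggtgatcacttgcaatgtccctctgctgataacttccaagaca
The *Sprr1a* window held 2 AP-1 matches, TGAGTCA at bases 146 to 140 and 116 to 110 before the RefSeq start, and a TATA box at bases 43 to 38. Of 32851 promoter windows of 250 bases, 6.75% held an AP-1 match, 0.338% held 2 or more, and 12.4% held a TATA box. The *Slpi* window held 1 C/EBP match on the opposite strand, TTGAGCAA at bases 241 to 234, a motif found in 9.56% of windows. Neither window held the TEAD motif, which 12.6% of windows hold, the STAT motif (7.02%) or the NF-kB motif (0.98%). These are matches of letters in 1 window a gene, and nothing is drawn from them about the factors.

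*Ly6d* is known from keratinocytes and lymphoid progenitors and *Sprr1a* from squamous epithelium, so markers of such cells and of other cell types were followed as lists. No list was made for hair cells. The 12 markers of squamous epithelium were near 0 and summed to 1.18 to 2.03 TPM in WT (C57BL/6), 0.361 to 1.16 TPM in YAPKO, 1.34 to 1.73 TPM in WT (mixed) and 1.61 to 3.81 TPM in YAPKO TAZHET livers, and *Krt1* and *Krt4* were at 0 in all. Of the 8 B lineage markers 2 could be tested and limma called neither (*Cd79a* -1.15 and -0.64, adjusted p = 0.0859 and 0.166; *Cd79b* 0.14 and -0.40, adjusted p = 0.55 and 0.363), and their sum was 4.00 to 9.46 TPM in WT and 2.25 to 7.34 TPM in knockout livers. Of 6 plasmacytoid dendritic cell markers, *Irf8* was called higher of 2 tested in each model, and the sum went from 6.01 to 8.34 TPM to 16.9 to 18.8 TPM in the C57BL/6 set and from 6.87 to 9.03 TPM to 11.8 to 18.5 TPM in the mixed set.

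Markers of neutrophils, macrophages and bile ducts were also called, and their counts are set beside the 18.8% and 19.2% of all tested genes called higher in YAPKO and YAPKO TAZHET livers. Of these markers, *Retnlg* and *Cldn7* reached 1 TPM in YAPKO livers and in no WT (C57BL/6) liver. They entered that test only through their high group, so the counts are a description. The 10 neutrophil markers summed to 7.79 to 16.96 TPM in WT (C57BL/6) and 51.4 to 59.8 TPM in YAPKO livers, and to 5.16 to 8.13 TPM in WT (mixed) and 12.2 to 58.1 TPM in YAPKO TAZHET livers. Of 5 tested in YAPKO livers 4 were called higher, led by *Retnlg*, *S100a9* and *S100a8*, and of 4 tested in YAPKO TAZHET livers *S100a8* was called; *Ly6g*, which defines mouse neutrophils, was at 0 in all WT and all YAPKO TAZHET livers. Of 10 macrophage markers, 9 were called higher in each model, and the sum went from 353 to 456 TPM to 964 to 1412 TPM and from 318 to 635 TPM to 1402 to 1536 TPM. Of 7 biliary markers tested, *Spp1*, *Cldn7*, *Sox9* and *Anxa4* were called higher in each model. The duct keratin *Krt19* was not called (limma adjusted p = 0.736 and 0.139) and *Epcam* was lower in YAPKO TAZHET livers (-1.48, adjusted p = 0.00118). By staining for CK19, the protein of *Krt19*, the study found no bile ducts within adult livers of either model. The cells that made the biliary marker RNAs were not identified. The biliary sum was 73.6 to 104 TPM in WT, 401 to 836 TPM in YAPKO and 187 to 297 TPM in YAPKO TAZHET livers. *Spp1*, the osteopontin gene, carried most of it in the knockout livers, with means of 450.4 and 154 TPM, while *Cldn7* had means of 13.3 and 16.8 TPM and *Anxa4* of 58.03 and 56.96 TPM. Of 8 hepatocyte markers 3 were called lower in each model, beside 17.9% and 19% of all tested genes, *Alb*, *Ttr* and *Serpina1a* in YAPKO and *Tat*, *Ttr* and *Serpina1a* in YAPKO TAZHET livers, and their sum was 87790 to 110600 TPM in WT and 75870 to 91910 TPM in knockout livers. The call of *Alb* was lost without scaling (limma adjusted p = 0.0566) and those of *Serpina1a* under quantile normalization (0.233 and 0.333). The part of these cell types in the levels of the 4 genes was not tested.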

How the data were processed

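RNA from frozen whole liver of 12 mice was sequenced as paired-end reads. Per the study's methods, alignment to GRCm38.p6 and gene assignment were done by the authors with CLC Genomics Workbench; strand handling is not given in the sources used here. The authors deposited 1 TPM value per gene and mouse in 2 tables, with their own edgeR comparison columns (fold changes, p-values, group means), which were not used. No TPM column lacked a sample (0 unmapped) and no 2 libraries were identical. The study states a nominal number of reads per sample, but read counts are not used here. The depth reached by each library and its precision are therefore unknown, and the spread between 3 mice is the only error.

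A scaling factor per library, the mean log ratio to a reference library after trimming 30% of ratios and 5% of levels at both ends, divided each TPM; 1 was added and log2 taken. The limma tests covered genes at 1 TPM or more in 3 libraries (limma 3.58.1, R 4.3.3, eBayes with trend, two-sided, Benjamini-Hochberg, threshold 0.05), each model with its own 6 libraries, and the difference between models and the WT groups with all 12. The steps were tested on simulated data. The 95% intervals come from the limma fits. Transcripts were compared with blastn 2.17.0; transcripts are from GENCODE M21 and promoter windows from RefSeq (GRCm38.p6).

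The 4 genes and all gene lists were chosen with earlier results of these data known. Named genes are the 4, at most 4 called rises and 3 called falls per family list, the 3 nearest patterns per gene, at most 3 called neighbours per gene, at most 3 called markers and defining markers at 0 per list, and the genes ranked next to each of the 4. Further genes of the lists are named outside this rule for what they are known to do and after their values were seen (among them *Anxa4*, *Epcam*, *Grn*, *Tgm1*, *Elane*, *Ctsg*, *Ivl*, *Lor* and *Sprr1b*). Alternatives were a pseudocount of 0.1, no filter, a filter of 5 TPM, no scaling, quantile normalization, robust shrinkage, all 12 libraries in 1 fit, and each mouse left out with the tested genes kept. The correlations without scaling were added after seeing the data.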

Additional observations from a re-analysis of the deposited data

How the results depend on the processing

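All values of the 4 genes kept their direction where they had a call or a rise. Of the alternative values, 308 stayed on the same side of their threshold, within 1.5 times a count or within 1 SD of a rise, 15 moved, and 19, none of them called, changed sign. With a pseudocount of 0.1, the rise of *Cib3* was 8.05 in YAPKO and 9.19 in YAPKO TAZHET livers, that of *Sprr1a* 8.91 and 8.84, and that of *Slpi* 7.30 in YAPKO TAZHET livers. A filter of 5 TPM, which removes low genes, left 8 and 7 family genes called higher in place of 15 and 15. The 7 genes whose change differed between models became 3 with a pseudocount of 0.1, 2 with no filter, and 2 to 21 over all alternatives; with 1 mouse left out they ran from 3 to 21, with 21 without YAPKO mouse LM74, 15 without YAPKO TAZHET mouse LM225, 3 without WT mouse LM193, LM226 or YAPKO TAZHET mouse LM251, and 4 without WT mouse LM227. The cause was not tested.

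The adjusted p of the *Slpi* difference between models ran from 0.573 to 1 (difference -1.70 to -1.004) and that of *Cib3* between the WT groups from 0.577 to 1 (difference -1.21 to -0.33). The sign of small uncalled differences was not stable. The difference between models became -0.027 for *Ly6d* and 0.091 for *Sprr1a* with a pseudocount of 0.1 and -0.14 for *Ly6d* under quantile normalization, and with 1 mouse left out ran from -0.69 (without LM230) to 0.41 for *Ly6d* and from -0.50 to 0.12 for *Sprr1a*. Between the WT groups *Slpi* stood at -4.23e-04 under quantile normalization, and with 1 mouse left out the difference ran from -0.62 to 0.49 for *Ly6d*, from -0.073 to 0.27 for *Sprr1a* and from -0.27 to 0.43 for *Slpi*. The correlation of *Ly6d* and *Slpi* between knockout livers was -0.35 without scaling. Over all alternatives *Cib3* ranked 1 to 3, *Ly6d* 1 to 5, *Sprr1a* 1 to 5 and *Slpi* 2 to 15 by rise. Without scaling, the median log2 change of all tested genes was 0.28 and 0.24 in place of -0.04, and 84% and 82.2% of called genes were higher in place of 51.3% and 50.2%, so all changes are relative to the bulk of the genes. No paired analysis was possible because the labels tie no knockout mouse to a WT mouse.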
